A study of Mus musculus with 18 samples.

Results

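The lysosome and V-ATPase genes of the mouse stomach were described here as 56 gene symbols out of 31201 gene names in the tables of kept cells. Of these, 33 were lysosome genes named in advance by symbol, and 23 were all symbols starting with Atp6v. Of the Atp6v symbols, 20 name subunits of the proton pump, and the other 3 are the processed pseudogenes Atp6v0c-ps1 and Atp6v0c-ps2 and the neighbour gene Atp6v1fnb. The rule for choosing symbols uses no measured value, but the symbols were chosen with earlier results of these data known.

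Lysosomes are acidic organelles in which hydrolases break down proteins, lipids and glycans. The V-ATPase, a rotary pump with a cytosolic V1 part that splits ATP and a membrane V0 part that carries protons, keeps their lumen acidic. TFEB and TFE3, transcription factors of the MiT family, are known to bind E-box letters in the promoters of many lysosome genes. The gastric corpus gland holds mucous pit cells towards the lumen, cycling progenitors in the isthmus, mucous neck cells, pepsinogen-secreting chief cells at the base, and parietal cells. Parietal cells acidify the stomach through a different pump, the proton-potassium ATPase built from Atp4a and Atp4b.

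The mice were 10-week-old male C57BL/6J animals, WT in genotype and without treatment, and single-cell transcriptomes were made with Quartz-Seq2, a plate method that counts RNA molecules by unique molecular identifiers (UMIs). Dataset 1 came from corpus and antrum gastric units sorted as ToPro3(-) in the labels, with 491 kept cells in 15 clusters. The study's methods instead name PI as the dye by which dead cells were removed from dataset 1. Dataset 2 came from corpus gastric units sorted as Hoechst33342(+),ToPro3(-), with 3993 kept cells in 20 clusters. Each dataset had 2 pools, each derived from 3 mice by a different operator and sorted into plates of its own: tube1 and tube2 in dataset 1, K and T in dataset 2.

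The pool was the replicate (n = 2 pools a dataset), since cells of a pool share their mice. UMIs of a cell type were summed in each pool and tested with edgeR's quasi-likelihood test across all genes, and a member was called higher or lower at a Benjamini-Hochberg adjusted p under 0.05. Levels are CPM, the UMIs of a gene relative to the TMM-adjusted size of the sum, and values of a pair of pools are given as pool K then pool T, or tube1 then tube2. Clusters had been made from the same counts, so each test says how the clusters differ in a gene and not how the clusters arose. Plates held 3054370 to 5346035 UMIs in dataset 1 and 10540256 to 12850942 in dataset 2, and the same 384 well barcodes were used on every plate, so a cell was identified by plate and barcode. Cluster names follow the study, apart from the isthmus-like cluster of dataset 1, named from its markers, and the compared types carried their marker genes. The compared types of dataset 2 are isthmus, neck, chief, pre-pit, mature pit and parietal cells, so endocrine and tuft cells of the epithelium are not among them. Summed macrophage markers were at most 2.24 CPM in any cluster of the compared types.

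The E-box letters TCACGTGA are the core of the element that TFEB and TFE3 bind, and they are shown because this element is what many lysosome promoters share. RefSeq promoters of 300 bases were matched to 42 of the 56 members. Of these, 8 (19.0%) held TCACGTGA, against 304 of 27025 genes with a promoter (1.125%), and 14 (33.3%) held the shorter CACGTG, which lies inside it, against 8.09%. Both words read the same on the other strand. The 8 promoters were found once each in GRCm39 by their whole sequence. Their matches are printed 5′ to 3′ on the gene's strand with the 8 letters in capitals. A match is a description of letters and not a bound site.
Atp6v0d1 (chr8:106292683-106292710, minus): cctactgcggTCACGTGAgacgcggtgc
Atp6v0e (chr17:26895362-26895389, plus): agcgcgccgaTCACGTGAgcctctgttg
Atp6v1a (chr16:43959737-43959764, minus): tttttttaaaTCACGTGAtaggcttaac
Cln3 (chr7:126182513-126182540, minus): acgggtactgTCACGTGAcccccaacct
Ctsa, first match (chr2:164675670-164675697, plus): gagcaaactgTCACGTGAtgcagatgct
Ctsd (chr7:141941646-141941673, minus): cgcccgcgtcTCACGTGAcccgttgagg
Gla, first match (chrX:133501965-133501992, minus): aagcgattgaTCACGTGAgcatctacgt
Mcoln1 (chr8:3550463-3550490, plus): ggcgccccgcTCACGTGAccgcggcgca

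The promoter windows of Ctsa and Gla each held a second match. The 250 bases before the start sites of Ctsd, a lysosomal aspartic protease, and Atp6v1a, the catalytic A subunit of the V1 part, are given for context. Capitals mark TCACGTGA or, where it stands alone, CACGTG.
Ctsd (chr7:141941565-141941814, minus): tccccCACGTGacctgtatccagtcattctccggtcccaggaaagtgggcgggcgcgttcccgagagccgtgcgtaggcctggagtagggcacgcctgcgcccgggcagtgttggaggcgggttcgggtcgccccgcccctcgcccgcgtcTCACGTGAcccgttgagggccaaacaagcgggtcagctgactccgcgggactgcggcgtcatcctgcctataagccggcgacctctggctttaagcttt
Atp6v1a (chr16:43959623-43959872, minus): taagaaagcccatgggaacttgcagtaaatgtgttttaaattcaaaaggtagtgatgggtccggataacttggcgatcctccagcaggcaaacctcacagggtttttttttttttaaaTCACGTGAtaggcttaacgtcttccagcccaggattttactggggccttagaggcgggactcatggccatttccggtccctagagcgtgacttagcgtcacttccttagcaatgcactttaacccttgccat

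As a share of all UMIs, the 33 lysosome genes were highest in neck and parietal cells among the compared types of dataset 2. They took 0.574% and 0.564% of UMIs in neck cells, 0.519% and 0.512% in parietal cells and 0.453% and 0.465% in mature pit cells. Isthmus cells gave 0.416% and 0.415%, and chief cells were lowest at 0.295% and 0.312%. The pools of a type lay close together, and the ranges of these types did not overlap. Without mitochondrial UMIs the order of neck and parietal cells turned, with 0.608% and 0.593% in neck and 0.645% and 0.625% in parietal cells. The Atp6v genes had another order, with parietal cells at 0.234% and 0.243%, mature pit cells at 0.156% and 0.152%, neck cells at 0.139% and 0.133%, isthmus cells at 0.119% and 0.117% and chief cells at 0.0896% and 0.0867%. In dataset 1 the Atp6v share was 0.241% and 0.245% in parietal cells, against 0.115% and 0.116% in isthmus-like cells.

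These shares are of all UMIs of a type, so a few very abundant secretory RNAs lower them, as do mitochondrial UMIs, which had a median of 19.3% in parietal cells against 4.25% in isthmus cells. The tests below were scaled by TMM, which places the middle of the genes near 0. Without TMM factors the median log2 fold change of all tested genes against isthmus moved from -0.06 to -0.95 in chief cells and from -0.07 to -0.42 in mature pit cells. In parietal cells it moved from -0.05 to -0.55. Directions in chief, pit and parietal cells below are therefore relative to the middle of the genes of that type.

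**Figure D1:**
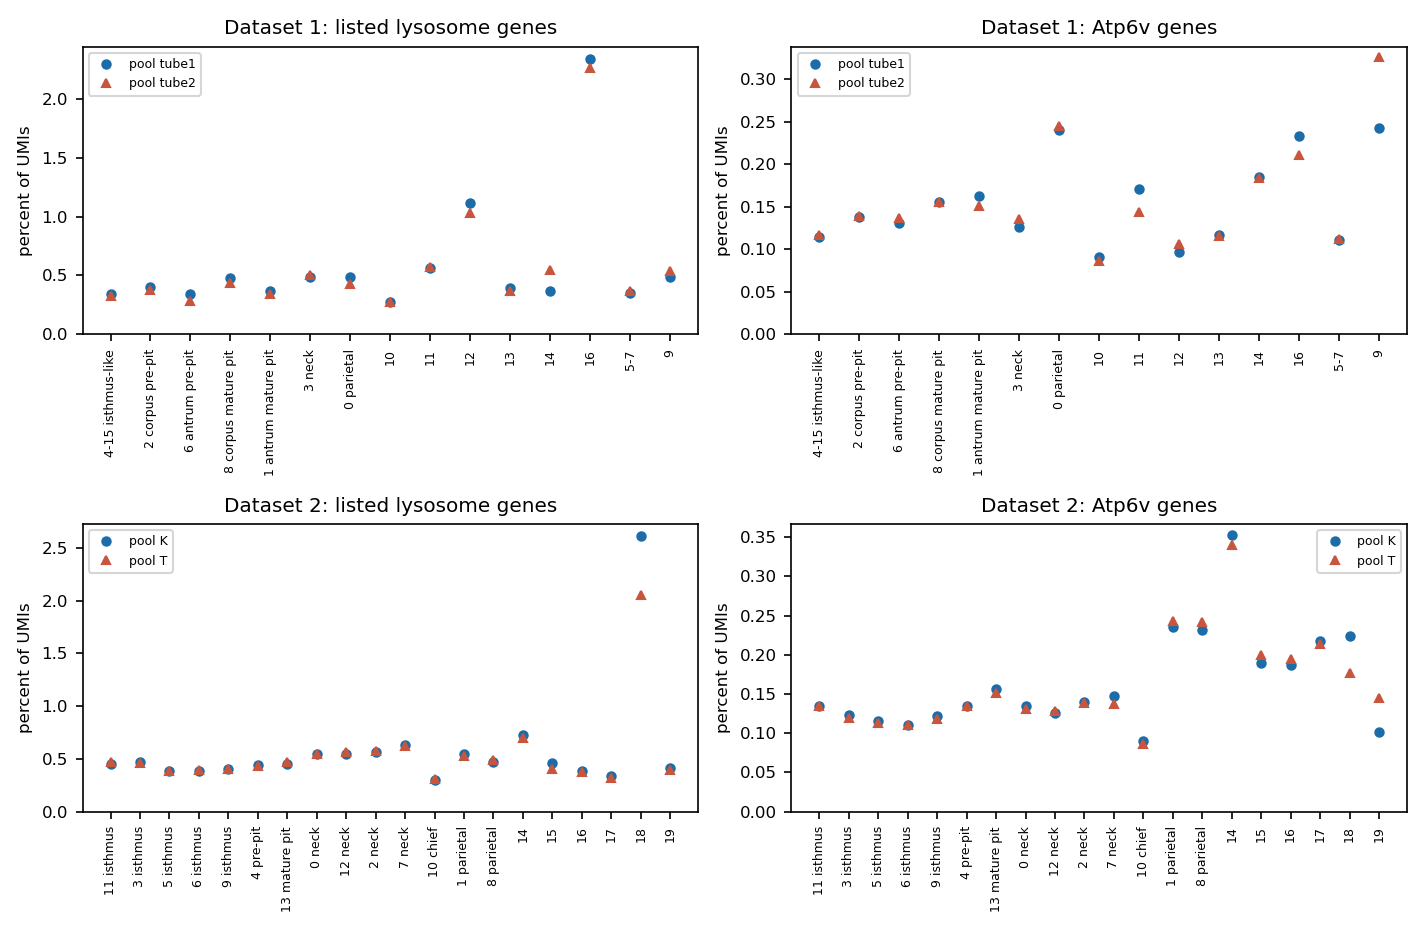
Percent of UMIs on the 33 listed lysosome genes (left) and on the Atp6v genes (right) in each cluster of dataset 1 (top) and dataset 2 (bottom); the y axes start at 0 and differ between panels, and each point is one pool. Clusters 16 of dataset 1 and 18 of dataset 2 stood above all others for lysosome genes, and cluster 14 of dataset 2 was highest for Atp6v genes.

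Of the 56 members, 49 passed the filter on low counts in dataset 2, namely 32 of the 33 lysosome genes and 17 of the 23 Atp6v symbols. Ctss, Atp6v0c-ps1, Atp6v0c-ps2, Atp6v0e2, Atp6v1b1, Atp6v1c2 and Atp6v1fnb did not pass. In dataset 1, 45 members passed, 31 lysosome genes and 14 Atp6v symbols.

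**Figure D2:**
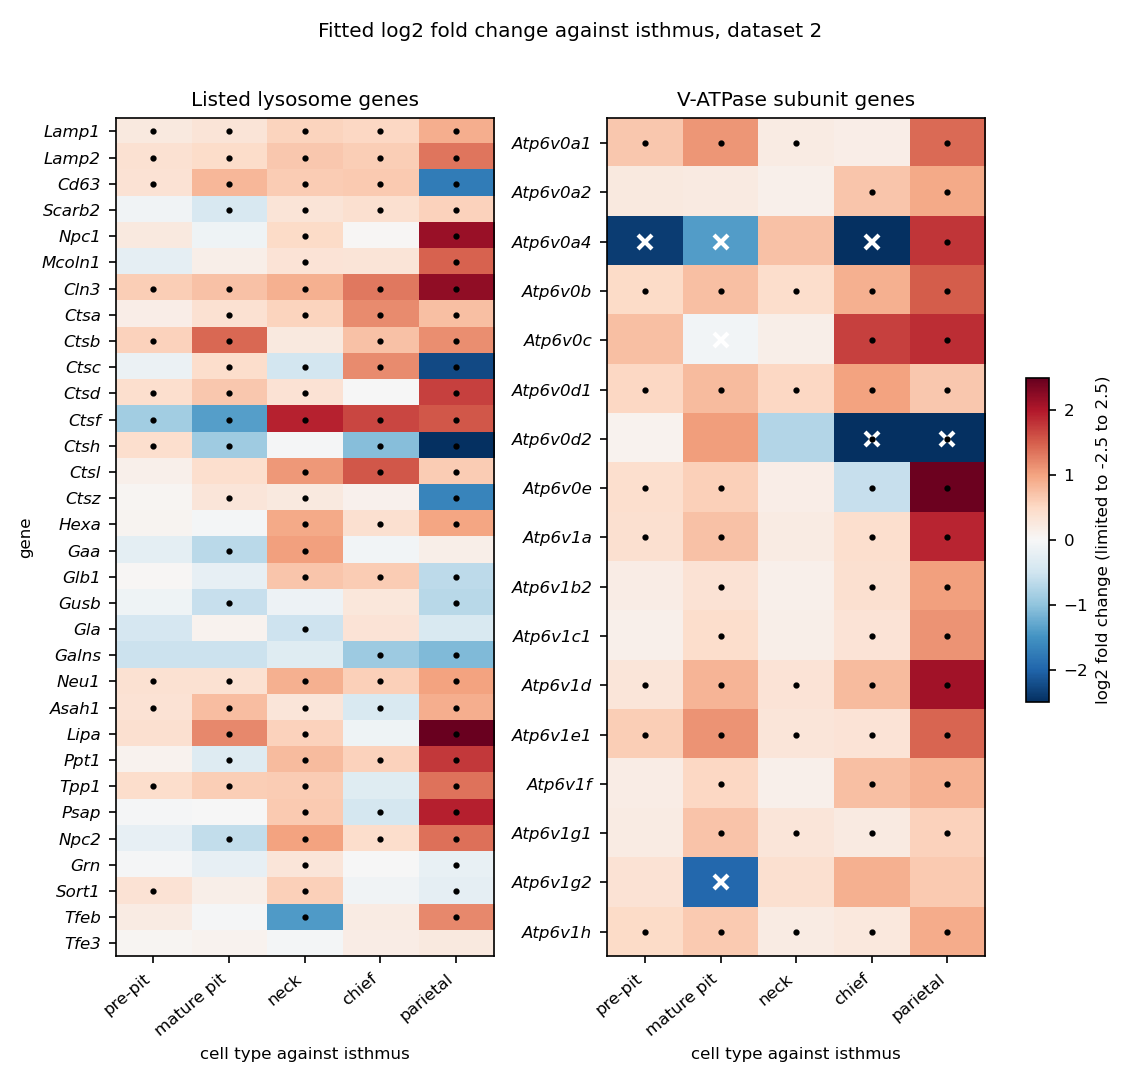
Fitted log2 fold change of each tested member (rows) in 5 cell types against isthmus (columns) in dataset 2, with colours limited to -2.5 to 2.5; black dots mark members called at an adjusted p under 0.05, and white crosses mark fits resting on 3 UMIs or fewer in the cell type, whose size depends on the prior count. The parietal column is the most coloured in both panels, and the neck column is mostly red for lysosome genes and pale for V-ATPase subunits.

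Neck cells against isthmus cells addressed how the lysosomal genes stand along the glandular branch. In neck cells 31 of 49 members were higher and 3 lower, where 26.4% of all 13894 genes were called higher and 24.3% lower. The lysosome genes gave 24 of 32 higher and 3 lower, and the Atp6v genes 7 of 17 higher and 0 lower. The median log2 fold change was 0.55 over the tested lysosome genes and 0.20 over the Atp6v genes, against 0.06 over all genes. All 7 listed lysosomal membrane genes were higher, as were 8 of 11 hydrolases other than cathepsins, and all 4 genes of cofactors and sorting.

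Ctsf, a cysteine protease (GRCm39 chr19:4905118-4915986), had 28.02 and 27.3 CPM in neck cells and 7.97 and 6.59 in isthmus cells. It rose by 1.93 ± 0.14 (SE) on the log2 scale (adjusted p = 9.6e-08, n = 2 pools), and the pools of the types did not overlap. Ctsl, another cysteine protease, had 141 and 186 CPM against 67.1 and 86.3, with a log2 change of 1.09 ± 0.14. The Ctsl rise did not hold against every isthmus cluster, as given below. Gaa, which breaks down glycogen in lysosomes, had 102 and 103 CPM against 47.6 and 53.2, with 1.02 ± 0.08. The gene Npc2, for the soluble carrier of lysosomal cholesterol, had 254 and 256 CPM against 129 and 123, and Hexa, for the alpha subunit of beta-hexosaminidase, had 154 and 157.8 against 82.3 and 80.5.

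Tfeb was among the 3 members that fell in neck cells. It had 3.65 and 5.12 CPM in neck cells against 11.7 in both isthmus pools, a change of -1.42 ± 0.19 (adjusted p = 3.6e-05). Its relative Tfe3 had 18.7 and 22.9 CPM against 20.05 and 22.6, and was not called. Gla, the alpha-galactosidase gene, fell from 15.8 and 20.4 CPM in isthmus cells to 10.6 and 14.9, and Ctsc, a dipeptidyl peptidase, from 54.2 and 60.9 to 40.6 and 43.0. Other lysosome genes outside the members gave 27 of 41 higher and 1 lower, read against the same 26.4% and 24.3% of all genes, among them Gm2a, an activator of ganglioside breakdown, at 41.5 and 40.5 CPM against 13.7 and 13.4.

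The isthmus clusters differed in the deposited cell cycle phase calls, with 85.5% of cells in G1 in cluster 11 and at most 8.72% in the other 4. The summed level of the isthmus markers Stmn1, Hmgb2, Tcf19 and Mki67, the last a gene of proliferating cells, was 81.1 and 126 CPM in cluster 11 and 381 to 1347 CPM in the other 4. With cluster 11 alone as the isthmus, 20 members were called in neck cells, 17 of them higher, and 19 of the 20 were among those called with all isthmus cells. In that fit 1848 of 12091 genes were higher and 1934 lower. Ctsl had a mean of 159.3 CPM in cluster 11, where the other isthmus clusters had 62.1 to 96.3. The neck clusters had 127.8 to 200.2, so cluster 11 lay within their range for Ctsl. For Ctsf, Gaa, Npc2 and Hexa, the mean of cluster 11 lay below that of every neck cluster. Neck cells were also shallower, with a median of 22530 UMIs a cell against 37426, and the part of either in the result was not tested.

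In dataset 1, neck cells had 16 of 45 members higher and 2 lower against isthmus-like cells, where 13.1% of genes were higher and 16.2% lower. The isthmus-like cluster had 0% of its cells in G1, so a comparison with G1 isthmus cells could not be made in dataset 1. The part of the cell cycle in the comparisons of that dataset was not tested. All 16 were also higher in dataset 2, and these were 51.6% of the 31 of dataset 2. The overlap of calls over all genes was not counted, so this repeat may not be particular to the members. Ctsf again led, at 14.2 and 17.6 CPM against 5.09 and 2.501 (2.10 ± 0.55). Gla and Ctsc were called lower in both datasets. In dataset 1 each lost its call when any 1 of the 4 sums of these types was left out, and Gla also with the pool as a replicate block (adjusted p = 0.0557 by edgeR). Tfeb was not called in dataset 1, at -1.23 ± 0.55 on the log2 scale. DESeq2 called 11 members there, all of them higher.

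Within the neck, cluster 12 had the chief markers Cblif and Pga5 beside the neck markers Aqp5 and Muc6 among its leading genes. Against the other neck clusters, 8 of 47 members were higher and 0 lower, where 5.12% of genes were called higher and 5.17% lower. Cln3, a lysosomal membrane protein gene, had 34.9 and 34.7 CPM in cluster 12 against 22.3 and 22.1 (0.66 ± 0.14, adjusted p = 0.0029). Npc2 followed at 356 and 421 against 265 and 274. The other neck clusters were not alike, since cluster 7 had a mean of 343.4 CPM of Npc2 and clusters 2 and 0 had 239.1 and 238.4. For Cln3, cluster 7 had a mean of 26.7 CPM. Cluster 12 was not the higher for every member, as Psap had a mean of 152.4 CPM there and 201.9 in cluster 7. Cluster 12 against cluster 7 alone was not tested. The number of calls was 4 without pool K of cluster 12 and 2 without pool T, in fits where the lone sum left is assumed to vary like the other clusters. Without TMM factors 2 members were higher and 6 lower, beside 329 and 2571 of 12922 genes.

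Chief cells against isthmus cells gave 27 of 49 members higher and 6 lower, where 25.9% of genes were higher and 29.5% lower. The lysosome genes gave 15 higher and 4 lower, and the Atp6v genes 12 higher and 2 lower. The 12 include Atp6v0c, whose few UMIs are given below. These directions were relative to the middle of the genes. Without TMM factors 4 members were higher and 36 lower, beside 1318 and 8839 of 13894 genes, and the median over members, -0.53, still lay above the median over all genes, -0.95.

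The named rises in chief cells were mainly cathepsins. Ctsf had 20.7 and 25.04 CPM against 7.97 and 6.59 in isthmus cells (1.67 ± 0.19, adjusted p = 6.2e-06). Ctsl had 196 and 249.2 against 67.1 and 86.3 (1.54 ± 0.15). Ctsa, which protects lysosomal beta-galactosidase and neuraminidase, had 175 and 181 against 79.1 and 77.2 (1.19 ± 0.08). Ctsc had 116 and 143 against 54.2 and 60.9, and so was high in chief cells but low in neck cells. Cln3 had 24.6 and 30.8 against 11.6 and 11.1. Ctsf, Ctsl, Cln3 and Ctsa stayed higher and called without TMM factors, and Ctsc was not called there.

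Ctsh, a cysteine protease with aminopeptidase activity, fell in chief cells to 62.6 and 75.9 CPM from 148 and 144 (-1.07 ± 0.12). Galns, a sulfatase, fell to 5.03 and 3.85 from 7.33 and 8.94 (-0.90 ± 0.30, adjusted p = 0.018). Atp6v0d2 had 0 UMIs in both chief pools and 83 and 115 UMIs in isthmus cells, which made it at least 1.68-fold lower at a floor of 3 UMIs a pool. The other members called lower were Atp6v0e, Psap and Asah1. Dmxl2, for a protein that helps to assemble the V-ATPase, had 29.6 and 21.2 CPM in chief cells against 0.848 and 0.540, and Rogdi of the same complex 50.9 and 56.6 against 12.2 and 13.1.

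Parietal RNA was measured in chief cells, with Atp4a at 714 and 602 CPM against 185 and 116 in isthmus cells. This was 2.84% of the parietal level, and Atp4b was at 0.9004% of it. The part of such RNA in the chief levels of members was not tested.

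Chief cells against neck cells gave 12 members higher and 13 lower, where 18.6% of genes were higher and 19.9% lower. Ctsc rose from 40.6 and 43.0 CPM in neck cells to 116 and 143 in chief cells (1.64 ± 0.15), and Tfeb from 3.65 and 5.12 to 10.1 and 16.2 (1.63 ± 0.28). Gaa fell from 102 and 103 to 50.3 and 46.6, and Psap, the precursor of the saposins that help lipid hydrolases, from 157.6 and 153 to 75.5 and 71.6. All 4 genes of cofactors and sorting were lower in chief cells. Without TMM factors 2 members, Ctsc and Tfeb, were higher and 44 lower, Ctsa and Atp6v1f among them, beside 712 higher and 9088 lower of 13894 genes.

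Mature pit cells against isthmus cells addressed the branch towards the lumen. In dataset 2, 25 of 49 members were higher and 7 lower, where 17.9% of genes were higher and 20.1% lower. The parts of the list moved apart: the Atp6v genes gave 12 of 17 higher and 0 lower with a median of 0.65, and the lysosome genes 13 of 32 higher and 7 lower with a median of 0.12, against -0.07 over all genes. Without TMM factors 14 members were higher and 14 lower, beside 1252 higher and 5676 lower of 13894 genes.

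Ctsb, an abundant cysteine protease (GRCm39 chr14:63358384-63383372), had 951 and 1170 CPM in mature pit cells against 394 and 386 in isthmus cells (1.44 ± 0.10, adjusted p = 1.9e-07). Lipa, the lysosomal acid lipase, had 12.7 and 19.2 against 7.16 and 7.08 (1.19 ± 0.18). These led the lysosome genes that rose. Ctsf fell to 3.18 and 2.495 CPM (-1.37 ± 0.33), Ctsh to 79.5 and 78.4 (-0.89 ± 0.11) and Gaa to 34.5 and 29.2 (-0.67 ± 0.11). Ctsf and Gaa were thus on opposite sides of isthmus in neck and mature pit cells.

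Among the V-ATPase genes, Atp6v1e1 of the V1 stalk had 245 and 271 CPM in mature pit cells against 120 and 117 (1.125 ± 0.08, adjusted p = 2.4e-07). Atp6v0a1, for the a1 copy of the membrane subunit that guides the pump to its compartment, had 67.2 and 75.2 against 33.3 and 33.6 (1.10 ± 0.09). Atp6v1d of the central shaft had 89.9 and 94.1 against 52.3 and 49.6 (0.86 ± 0.09). These 3 stayed higher and called without TMM factors.

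Pre-pit cells lay between isthmus and mature pit cells for several of these genes. Atp6v0a1 had 50.6 and 55.3 CPM and Atp6v1e1 177 and 187. Ctsb had 569 and 602, and in each of these the pools of isthmus, pre-pit and mature pit cells did not overlap. In pre-pit cells 19 members were higher and 1 lower, where 12.3% of genes were higher and 15.5% lower. The 20 calls fell to 11 without pre-pit pool T and 13 without pre-pit pool K. With cluster 11 alone as the isthmus, 2 of 47 members were higher and 2 lower, where 681 of 12091 genes were higher and 631 lower, so the members did not stand above the background there. Without TMM factors 6 members were higher and 8 lower, beside 636 and 3792 of 13894 genes.

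Mature pit cells against neck cells separated the list by part. Of 17 Atp6v genes, 12 rose in mature pit cells and 1 fell, while 7 of 32 lysosome genes rose and 16 fell. Over members this was 19 higher and 17 lower, where 22% of genes were higher and 24.7% lower. Ctsf fell from 28.02 and 27.3 CPM in neck cells to 3.18 and 2.495 (-3.30 ± 0.28, adjusted p = 4.8e-07), and Gaa from 102 and 103 to 34.5 and 29.2 (-1.69 ± 0.11). Tfeb rose from 3.65 and 5.12 to 8.63 and 13.9, and Ctsb from 469 and 449 to 951 and 1170. Atp6v1g2 had 2 and 1 UMIs in mature pit cells and was called lower. Without TMM factors 6 members were higher and 21 lower, beside 1946 and 5447 of 13894 genes.

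In dataset 1, corpus mature pit cells had 20 of 45 members higher and 5 lower against isthmus-like cells, where 20.6% of genes were higher and 22.3% lower. Of the 20, 19 were also higher in dataset 2, where the overlap over all genes was again not counted. Lipa had 59.8 and 54.1 CPM against 7.003 and 4.001 (3.39 ± 0.31, adjusted p = 1.1e-07), and Atp6v0a1 80.6 and 105 against 35.0 and 25.5 (1.63 ± 0.20). For Lipa the change in dataset 2 was smaller, at 1.19 ± 0.18. Parietal cells of dataset 1 had a mean of 31.4 CPM of Lipa, below these pit cells, where in dataset 2 parietal cells were highest. The difference between the datasets was not tested. Gusb, the beta-glucuronidase gene, fell to 16.9 and 15.7 from 43.9 and 41.0. Without TMM factors 10 members were higher and 7 lower, beside 1069 and 4070 of 10229 genes.

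Antrum mature pit cells gave 22 of 45 higher and 5 lower against the same isthmus-like cells, where 24.6% of genes were higher and 26.2% lower. The Atp6v genes gave 12 of 14 higher and 0 lower. The 12 include Atp6v0d2, which may have passed the filter on low counts only through antrum pit cells. Lipa had 84.5 and 65.6 CPM (3.81 ± 0.27) and Atp6v0a1 121 and 110 (1.95 ± 0.18). Ctsf had 0 UMIs in both pools. Without TMM factors 13 members were higher and 12 lower, beside 1329 and 4636 of 10229 genes. Corpus and antrum pit cells share their control, and the difference between them was not tested.

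**Figure D3:**
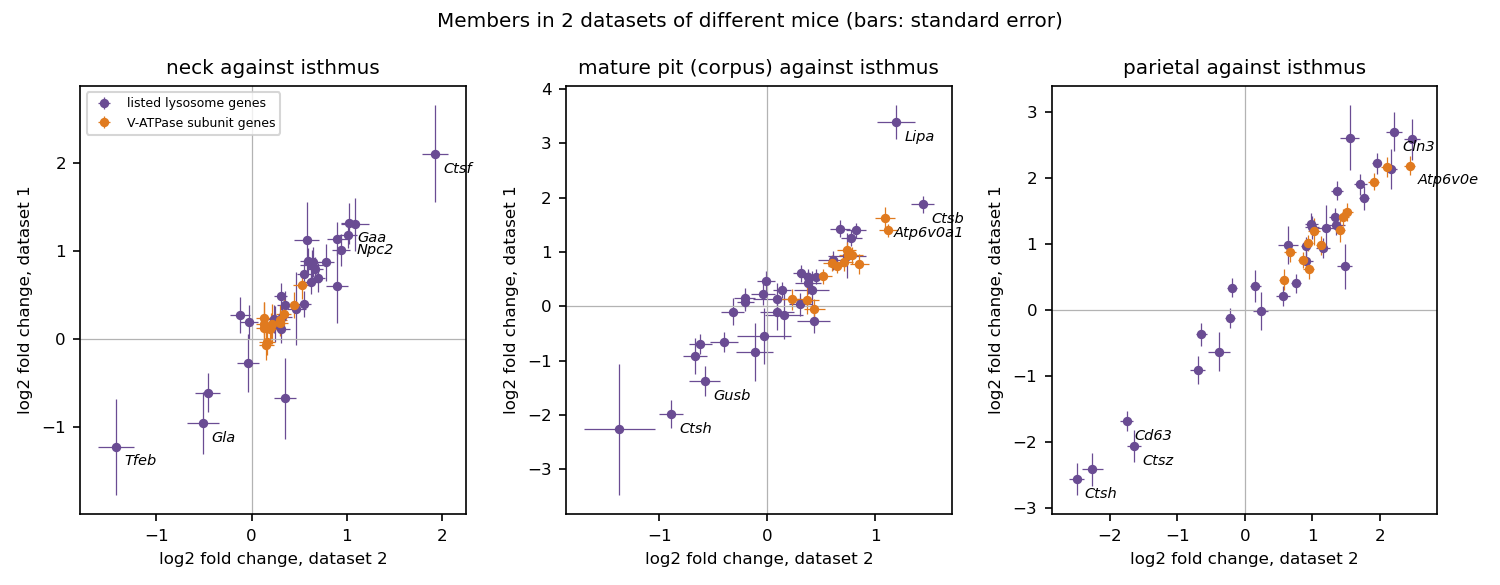
Fitted log2 fold change against isthmus (isthmus-like cells in dataset 1) of members tested in both datasets, with dataset 2 on the x axis and dataset 1 on the y axis; bars are standard errors, and Atp6v0d2, at or near 0 UMIs in several groups, is left out. Most points lie where both datasets have the same sign, and the V-ATPase subunit genes lie to the right in the parietal panel.

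Among the 6 compared types, parietal cells had the highest share of Atp6v UMIs. Against isthmus cells, 15 of 17 Atp6v genes were higher and 1 lower, with a median log2 fold change of 1.13 against -0.05 over all genes. The 15 include Atp6v0a4 and Atp6v0c, which may have passed the filter on low counts only through types where they are high. Over all members 35 of 49 were higher and 10 lower, where 35.2% of genes were higher and 36.7% lower. The lysosome genes gave 20 of 32 higher and 9 lower. Without TMM factors 31 members were higher and 13 lower, beside 2886 and 7733 of 13894 genes.

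Atp6v0e, a small subunit of the V0 part (GRCm39 chr17:26882205-26918621), had 666 and 710 CPM in parietal cells and 122 and 131 in isthmus cells. It rose by 2.44 ± 0.09 (adjusted p = 1.4e-11, n = 2 pools). The other compared types were far lower, with mature pit cells at 189 and 195, neck cells at 139 and 145 and chief cells at 82.2 and 87.4. In dataset 1 it had 609 and 698 CPM in parietal cells against 140 and 148 (2.18 ± 0.14).

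Atp6v1d had 209 and 229 CPM in parietal cells against 52.3 and 49.6 in isthmus cells (2.10 ± 0.08, adjusted p = 2.7e-11). The catalytic gene Atp6v1a (GRCm39 chr16:43887852-43960076) had 288 and 289 against 78.8 and 74.6, and Atp6v0b of the proton-carrying ring 303 and 285 against 106 and 98.8. Smaller rises were seen for Atp6v1g1, at 87.8 and 93.7 against 61.9 and 60.0, and Atp6v0d1, at 111 and 110 against 67.8 and 71.1. For both of these, mature pit cells were higher than parietal cells. Among the 6 compared types, parietal cells were highest for 13 of the 17 Atp6v genes and isthmus cells lowest for 12. The same count over all genes was not made, so how far these numbers stand apart from genes in general is not known. Cluster 14, which carries endocrine markers and entered no test, had a higher Atp6v share than parietal cells, 0.353% and 0.340%.

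**Figure D4:**
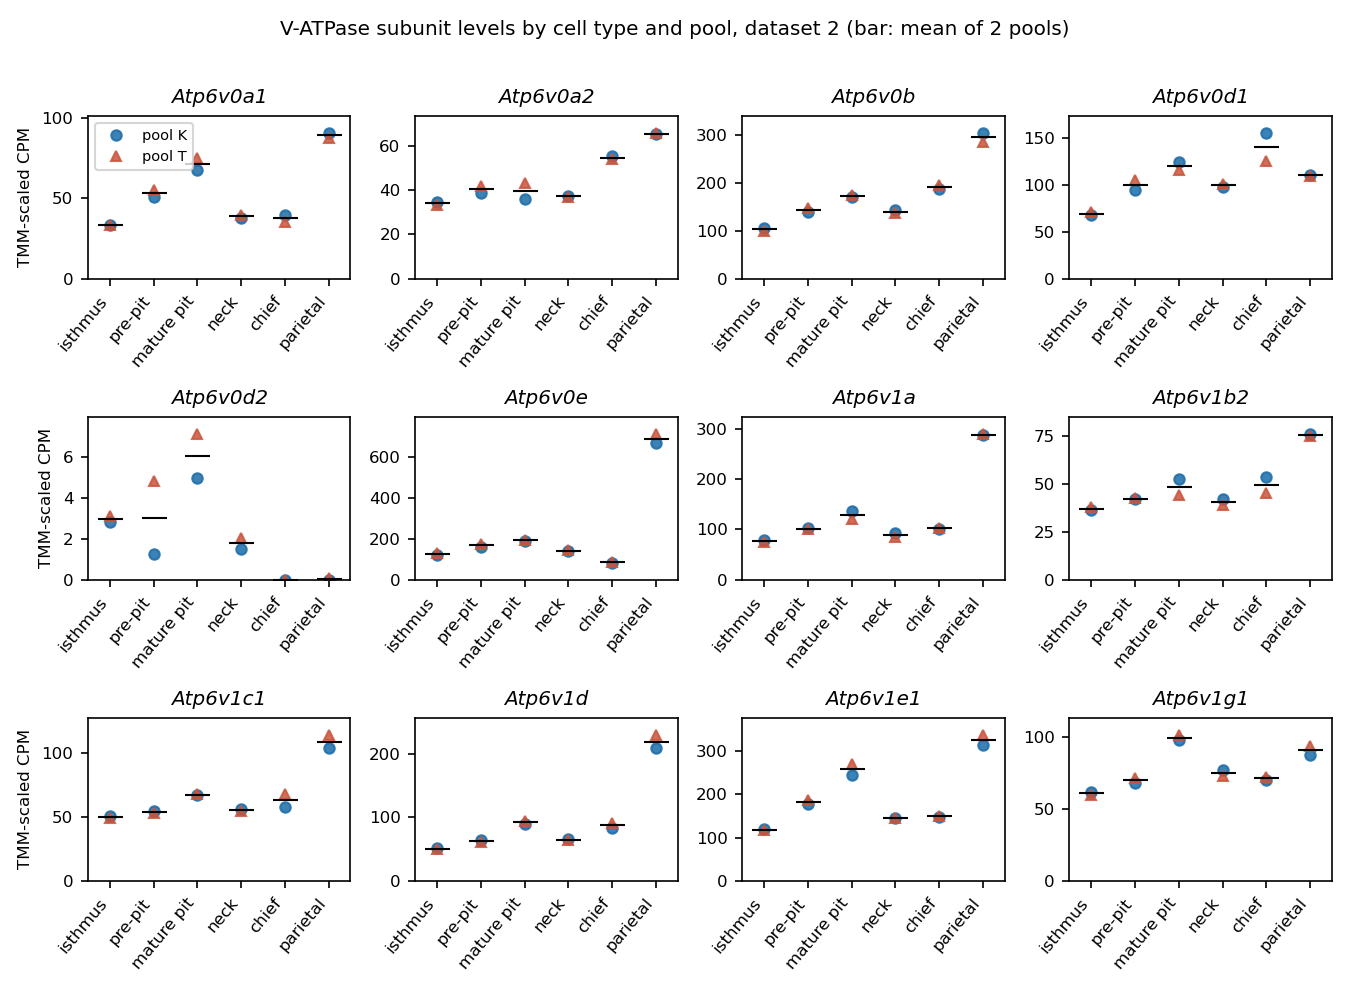
TMM-scaled CPM of 12 V-ATPase subunit genes in 6 cell types of dataset 2, with 1 point for each pool and a bar at the mean of 2 pools; axes are linear, start at 0 and differ between genes. Atp6v0e, Atp6v1a and Atp6v1d stand far above the other types in parietal cells, Atp6v0d1 is highest in chief cells, Atp6v1g1 in mature pit cells, and Atp6v0d2 is at or near 0 in chief and parietal cells.

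The lysosome genes split in parietal cells. Lipa had 40.1 and 39.1 CPM against 7.16 and 7.08 (2.47 ± 0.12, adjusted p = 3.1e-10), Cln3 58.7 and 46.1 against 11.6 and 11.1 (2.21 ± 0.11), and Npc1, which exports cholesterol from lysosomes, 54.5 and 50.2 against 12.2 and 11.2 (2.16 ± 0.10). Tfeb had 25.8 and 28.4 CPM, its highest level of the 6 types, against 11.7 in isthmus cells (1.21). Mitf, another MiT family factor outside the members, was also higher, by 3.63 on the log2 scale. Psap rose by 1.95, Ctsd by 1.71 and Mcoln1, a lysosomal calcium channel, by 1.48.

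Other members were lowest in parietal cells. Ctsh had 23.0 and 29.1 CPM there against 148 and 144 in isthmus cells (-2.49 ± 0.11, adjusted p = 8.7e-11), and Ctsc 12.3 and 11.7 against 54.2 and 60.9 (-2.26 ± 0.15). Cd63, a tetraspanin of late endosomes, had 98.1 and 110 against 346 and 355 (-1.75), where the other 4 types were above isthmus. Ctsz fell by 1.64 on the log2 scale. Atp6v0d2, which was also called lower, had 0 and 1 UMIs against 83 and 115.

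Against the mean of the other 5 types, parietal cells had 34 of 49 members higher and 9 lower, where 35.2% of genes were higher and 32.6% lower. The Atp6v genes gave 15 higher, again with Atp6v0a4 and Atp6v0c among them, and 0 lower, and Atp6v0d1 and Atp6v0d2 were not called. Psap had 382 and 385 CPM in parietal cells against 103 and 100, the means over the other types by pool (1.92 ± 0.05), and Npc1 54.5 and 50.2 against 12.7 and 12.7 (2.04 ± 0.08). In dataset 1 the same comparison, against 6 other types that include antrum cells, gave 28 of 45 higher and 6 lower, where 31.7% of genes were higher and 26.9% lower. Without TMM factors 31 members were higher and 10 lower in dataset 2, beside 3883 and 5685 of 13894 genes. In dataset 1 these counts were 25 and 6, beside 2773 and 3367 of 10229 genes.

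Against isthmus-like cells of dataset 1, parietal cells had 31 of 45 members higher and 5 lower, where 28.3% of genes were higher and 32% lower. The Atp6v genes gave 13 of 14 higher and 0 lower, the exception being Atp6v0d2. All 31 were higher in dataset 2 as well, where 33 of the 45 members tested in both were higher. Here too the overlap over all genes was not counted. Cln3 had 67.2 and 42.7 CPM against 7.64 and 8.50 (2.69 ± 0.29), Ctsh 25.3 and 29.9 against 151 and 184 (-2.57 ± 0.24) and Ctsz 23.4 and 12.3 against 81.5 and 57.5 (-2.07 ± 0.24). Without TMM factors 27 members were higher and 8 lower, beside 1977 and 4538 of 10229 genes.

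Parietal cells of dataset 2 fell into clusters 1 and 8, with 458 and 244 cells. Cluster 1 had 21 of 47 members higher and 3 lower than cluster 8, where 14.9% of genes were higher and 12.3% lower. Of the 7 listed lysosomal membrane genes, 6 were higher and Cd63 was lower. Tpp1, a lysosomal tripeptidyl peptidase, had 283 and 242 CPM in cluster 1 against 125 and 144 (0.97 ± 0.12, adjusted p = 2.8e-06), and Ppt1, which removes palmitate from proteins, 195 and 180 against 100 and 115 (0.80 ± 0.08). Atp6v1g2 had 5.38 and 6.199 against 1.07 and 2.17. Cluster 1 had the larger median mitochondrial share, 22.8% against 12.6%, whose part in the result was not tested. Without TMM factors 14 members were higher and 12 lower, beside 953 and 3562 of 12922 genes.

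Several V-ATPase subunits exist as gene copies, and the copies were counted by their share of the subunit's UMIs. The V0 a subunit came mainly from Atp6v0a1 and Atp6v0a2. In dataset 2 Atp6v0a1 took 51.5% of V0 a UMIs in parietal cells, 51.7% in mature pit cells and 50.1% in pre-pit cells, against 39.6% in isthmus, 43.6% in neck and 34.3% in chief cells. Atp6v0a2 took the largest share in chief cells, 50.5%. Tcirg1, the a3 copy known from osteoclasts, gave 9.46% in parietal cells and 19.7% in isthmus cells.

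Atp6v0a4, the a4 copy known from renal intercalated cells, was rare in every compared type of dataset 2. It had 36 and 22 UMIs in parietal cells, 1.10% of V0 a UMIs, and 16 and 20 in isthmus cells. Its level of 2.14 and 1.60 CPM in parietal cells was above 0.543 and 0.540 in isthmus cells (1.78 on the log2 scale), and it was called higher. Both parietal pools were above those of all other types, so it may have passed the filter only through the group where it is high. Its call is therefore no support for a rise, and it is among the Atp6v genes counted above as higher, and as highest, in parietal cells. In dataset 1 it did not pass the filter, with 5 and 0 UMIs in parietal cells.

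**Figure D5:**
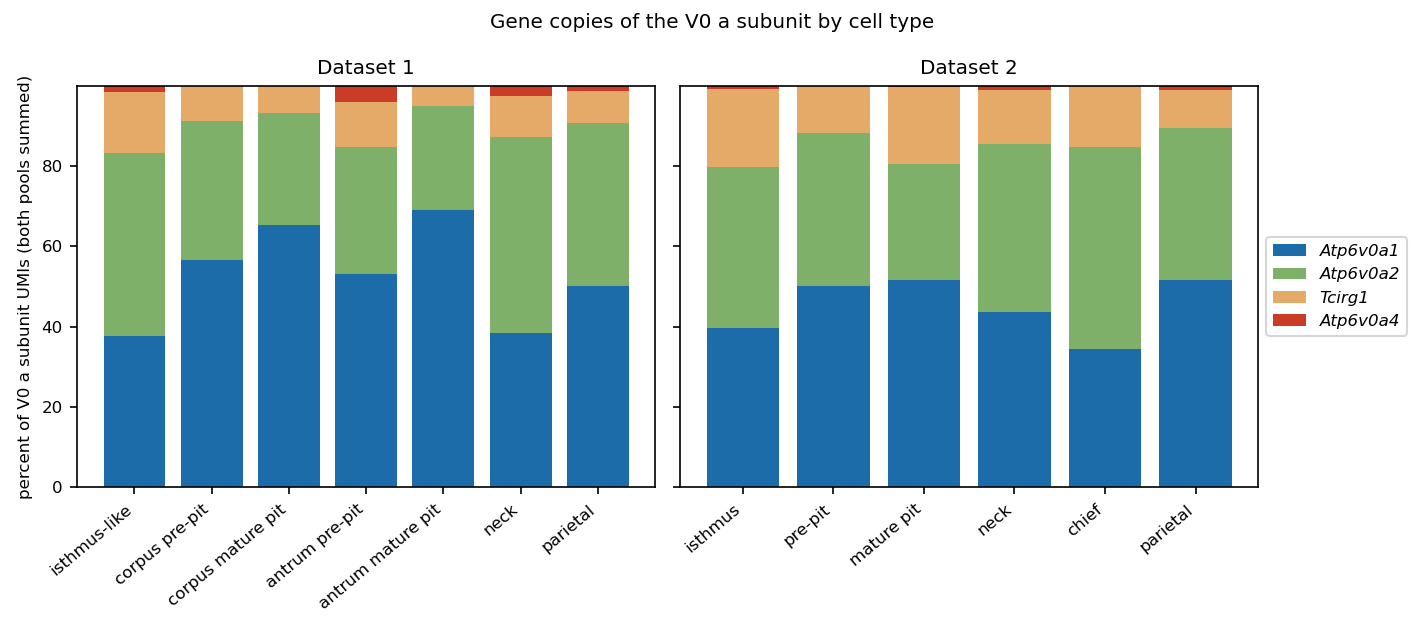
Share of V0 a subunit UMIs (percent, y axis, both pools summed) taken by each of 4 gene copies in the compared types of dataset 1 (left) and dataset 2 (right); each bar adds up to all V0 a UMIs of that type. Atp6v0a1 takes its largest shares in mature pit cells of dataset 1 and Atp6v0a2 in chief cells of dataset 2, and Atp6v0a4 is thin or missing in every bar.

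The V0 d subunit came almost wholly from Atp6v0d1. Atp6v0d2 took 4.1% of V0 d UMIs in isthmus cells, 4.91% in mature pit cells and 1.74% in neck cells of dataset 2, and 0% in chief cells. Within the isthmus it was highest in cluster 11, at 9.84 ± 3.49 CPM (SD, n = 2 pools). In antrum mature pit cells of dataset 1 it reached 12.97% of V0 d UMIs, with 46 and 9 UMIs in the pools. Its level there was 28.6 and 8.95 CPM against 0.637 and 1.5 in isthmus-like cells (1 and 3 UMIs). It was called higher (adjusted p = 0.00020 by edgeR). In neck and parietal cells of dataset 1 it had 0 UMIs. It may thus have passed the filter on low counts only through the antrum pit cells where it is high, and its call is no support for a rise. The pools of antrum mature pit cells differed from each other more than 3-fold in this gene.

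The other copies were close to single. Atp6v1b2 gave at least 99.6% of V1 B UMIs in every compared type of dataset 2, and the renal copy Atp6v1b1 had at most 11 UMIs in a type. Atp6v1c1 gave at least 99.6% of V1 C UMIs, and Atp6v1e1 was the only V1 E gene among the names. Atp6v1g2 took 3.96% of V1 G UMIs in parietal cells and 0.596% in mature pit cells. Atp6v0e2 had at most 4 UMIs in a pool of a compared type.

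Atp6v0c, which encodes the main proton-carrying ring protein, stayed at or under 2.80 CPM in every pool of the compared types. Reads of Atp6v0c and its processed pseudogenes may have been split or dropped, so its calls in chief and parietal cells are uncertain, with 4 and 5 UMIs in the chief pools. It may also have passed the filter on low counts only through these types, where it is high. Its calls are therefore no support for a rise. It is among the Atp6v genes counted above as higher in chief and parietal cells, and as highest in parietal cells.

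The members with the printed 8-letter match were also counted apart, without a test. In parietal cells 7 of 8 were higher and 0 lower, where members with a promoter but no match gave 20 higher and 6 lower of 29. In neck cells the counts were 5 higher and 1 lower against 21 and 2. In mature pit cells they were 6 and 0 against 13 and 6, and in chief cells 4 and 1 against 17 and 1. The shares of all genes called in these comparisons were 35.2% higher and 36.7% lower in parietal, 26.4% and 24.3% in neck, 17.9% and 20.1% in mature pit and 25.9% and 29.5% in chief cells. These comparisons share the isthmus sums. Gla was the member with a match not called in parietal cells, at 13.6 and 14.2 CPM against 15.8 and 20.4.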

How the data were processed

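Per the labels and the study's methods, the authors demultiplexed reads with bcl2fastq 2.20.0.422, processed them with Drop-seq tools and FASTX-Toolkit, aligned them to GRCm39 with Gencode M27 by STAR, and counted UMIs per gene and cell. The deposited counts are whole UMIs, not normalized. The authors kept cells with at least 2500 genes and clustered them in Seurat; their cluster labels were used, and so was the deposited percent of UMIs on mitochondrial genes per cell.

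Here UMIs were summed by cell type and pool and tested with edgeR 4.0.16 in R 4.3.3 (filterByExpr, TMM, glmQLFit, glmQLFTest), with Benjamini-Hochberg adjustment over all genes tested, 13894 in dataset 2, 10229 in dataset 1 and 12922 between clusters of dataset 2. The standard error is the log2 fold change divided by the square root of F. Sums of all types of a dataset entered one fit. The code was tested on simulated data. Median UMIs per kept cell were 38757 in dataset 1 and 31020 in dataset 2, and low genes are limited by these counts. Same-numbered sums come from the same mice: their deviations correlated at -0.029 to 0.053 in dataset 1 and at 0.069 to 0.411 in dataset 2.

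Named members were up to 5 largest rises and 3 largest falls among those called with the same direction in both pools and at least 10 UMIs in each pool of the higher type, and the V-ATPase copies. Members and lists were chosen with earlier results of these data known. Alternatives were DESeq2 1.42.0, its size factors, no filter, a pool block, no mitochondrial genes, plate sums, other cluster choices and leaving out each sum. Library sizes without TMM factors were added after seeing the data. Promoters are from RefSeq.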

Additional observations from a re-analysis of the deposited data

Results flagged for a closer look

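Grn, which encodes progranulin, was called in opposite directions in the datasets when parietal cells were set against the other compared types. It was higher in dataset 1 by 0.32 ± 0.11 (SE) on the log2 scale and lower in dataset 2, at -0.21 ± 0.057 (adjusted p = 0.021 and 0.0054 by edgeR's quasi-likelihood test). The other types of dataset 1 include antrum cells and those of dataset 2 do not. The difference between the datasets was not tested.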

How the results depend on the processing

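Of 1509 alternative values for named members, 1435 kept direction and side of the threshold, 72 no longer passed it and 2 reversed: Ctsa at -0.18 and Atp6v1f at -0.20 in chief against neck cells, without TMM factors. Of 201 alternative counts of called members, 191 stayed within 1.5 times the main count; these add calls in both directions, so a turned split, such as 27 higher and 6 lower becoming 4 and 36 in chief cells without TMM factors, is not seen in them. The exceptions were neck against isthmus from cluster 11 only (20 called against 34), pre-pit against isthmus from cluster 11 only (4 against 20), chief against neck without TMM factors (46 against 25), DESeq2 in neck cells of dataset 1 (11 against 18), and neck cluster 12, with 4 without the filter on low counts and 15 in plate sums of at least 3 cells, against 8. Leaving out each sum gave 11 to 16 calls in pre-pit cells and 2 to 8 in neck cluster 12, with a lone sum assumed to vary like the others. The cause was not tested. Counts by DESeq2, in plate sums, without the filter and with a sum left out are given without the matching share of all genes. They therefore do not show whether members changed more than genes in general. With the pool as a replicate block no total count moved by over 1.5 times, but members called lower went from 1 to 3 in pre-pit cells (23 called in all) and from 2 to 1 in neck cells of dataset 1, where Gla lost its call, the only named member to do so under the block. With 2 pools a type, changes in members of few UMIs could not be resolved.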

Other observations

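Outside the compared types, Ctss, a cathepsin of antigen-presenting cells, was at 3789 CPM ± 343 (SD, n = 2 pools) in cluster 18 of dataset 2, whose 13 cells carried all 5 macrophage markers. In no other cluster of that dataset was its mean above 1.29 CPM. In dataset 1, cluster 5-7, mostly named duodenum cells in an earlier annotation by the authors, also had Ctss, at 303 and 419 CPM. The listed lysosome genes took 2.61% and 2.06% of UMIs in cluster 18, and 2.33% and 2.26% in cluster 16 of dataset 1, of 8 cells. The earlier annotation named 5 of these 8 cells lymphocytes.

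Cluster 14 of dataset 2, with 53 cells, carried 5 of 6 endocrine markers and gave the highest Atp6v share, 0.353% and 0.340% of UMIs. Atp6v0e2, at most 4 UMIs in a pool of any compared type, was at 193 CPM ± 8.78 there and at 115 ± 32.9 in cluster 17, which also carried 5 of 6 endocrine markers. In dataset 1 it was highest in cluster 9, at 103 ± 49.5.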
